A study of Mus musculus with 48 samples.

Results

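Carbonic anhydrase genes were described in the cerebral cortex of 48 mice, from messenger RNA sequencing at 6 months of age. The 10 genes are Car2, Car3, Car4, Car7, Car8, Car10, Car11, Car12, Car13 and Car14, matched by gene name among the 48795 genes of the tables. All 10 passed the filter on low counts, which 20010 genes passed. Car2 was selected on its measured level, which was lower in mice that carry Q140, so its values in every comparison of carriers with non-carriers are a description and are given with no test. The other 9 genes were taken as members of the same family.

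Carbonic anhydrases are zinc enzymes that catalyse the reversible hydration of CO2 to bicarbonate and a proton, and so set how fast cells and the fluid around them buffer acid. In the brain, Car2 is a cytosolic enzyme known from oligodendrocytes and the choroid plexus, the secretory epithelium that makes cerebrospinal fluid. Other members are held at the cell surface, and a few related proteins have lost catalytic activity and bind other proteins instead.

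The mice fall into 6 genotypes on a C57BL/6 background, of both sexes. WT mice (7) carry neither alteration. Q140 mice (8) are heterozygous for Q140, a knock-in allele of the huntingtin gene Htt with an expanded CAG repeat that serves as a model of Huntington's disease. Msh3+/- mice (9) and Msh3-/- mice (8) are heterozygous and homozygous for an altered allele of the mismatch repair gene Msh3. Q140 x Msh3+/- mice (8) and Q140 x Msh3-/- mice (8) combine both, so 24 mice carry Q140 and 24 do not. The labels do not describe the Msh3 allele, and they do not say which mice are littermates. The main tests therefore treat the mice as independent, and their p-values rest on that.

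Library totals ranged from 35.9 to 64.5 M counts (mean 46.5 M). Levels are given as CPM, counts divided by the TMM-scaled library size in M, for comparisons between mice, and as FPKM, which also divides by gene length, for comparisons between genes. Htt RNA had group means from 236.8 to 242.1 CPM, and these counts do not separate the Q140 allele from the unaltered one. Msh3 RNA went against reading the labels as a loss of RNA, at 24.2 ± 1.06 CPM in mice labelled WT (SD, n = 7), 67.4 ± 5.11 in those labelled Msh3+/- (n = 9) and 109.0 ± 7.91 in those labelled Msh3-/- (n = 8). Markers of excitatory cortical neurons summed to between 6643 and 8050 CPM in every mouse. Results were recomputed without 3 libraries that had more than 50 CPM of Ttr, a choroid plexus transcript, and without 3 that stand apart on the second principal component of log2 CPM (6.69% of the variance; Msh3+/- male 2, Q140 male 1 and Q140 x Msh3-/- male 4).

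The 10 genes spanned a wide range of levels per length. Car11 was highest at 75.2 ± 3.94 FPKM (SD, n = 48 mice throughout), followed by Car2 at 40.9 ± 2.93, Car10 at 33.4 ± 1.66 and Car4 at 27.1 ± 2.51. Car7 lay at 6.74 ± 0.52, Car8 at 3.87 ± 0.33 and Car14 at 2.26 ± 0.32 FPKM. The lowest were Car12 at 1.05 ± 0.57, Car13 at 0.53 ± 0.22 and Car3 at 0.19 ± 0.08 FPKM. The order hardly varied between animals: each gene was above the next in the same library in 45 to 48 of 48 mice, with Car11 above Car2 in 48, Car2 above Car10 in 47 and Car10 above Car4 in 46. By CPM, which does not divide by length, Car10 came first at 212.5 ± 11.1, ahead of Car11 at 144.9 ± 7.34 and Car2 at 99.1 ± 7.31. The spread between mice, as a coefficient of variation of CPM, was 5.06% for Car11 and 7.38% for Car2, and reached 40.9% for Car13, 44.1% for Car3 and 54.6% for Car12. Depth limits the lowest gene, since Car3 had 4 to 54 counts per library (median 23.5), against 3400 to 6585 for Car2.

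**Figure D1:**
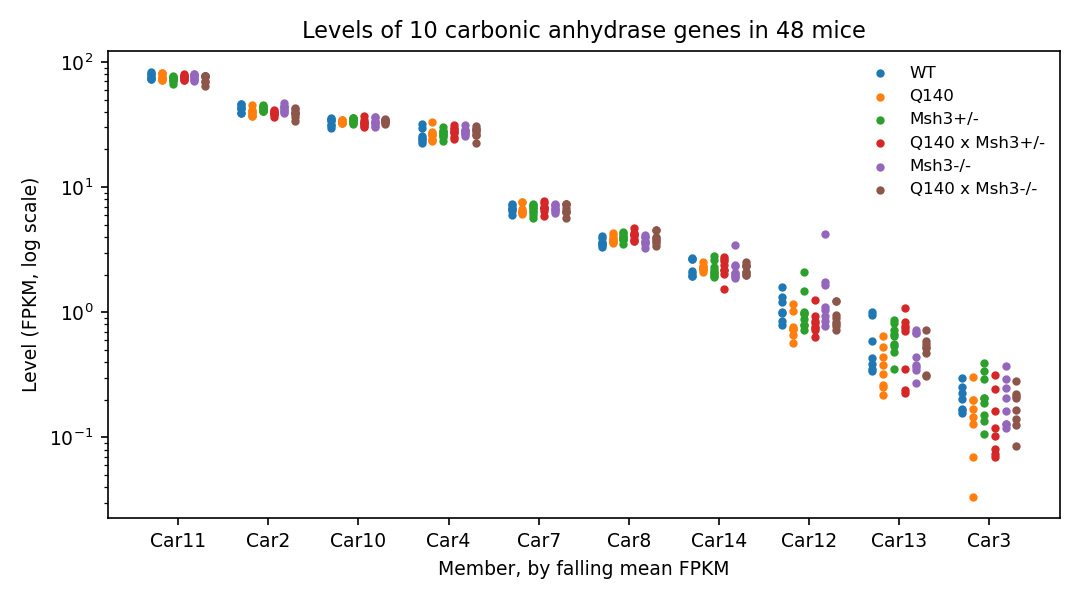
Level of each gene in FPKM on a log scale, 1 point per mouse, coloured by genotype, with genes in order of falling mean. Car11, Car2, Car10 and Car4 form the upper group with means of 27.1 to 75.2 FPKM, and the points of Car12, Car13 and Car3 spread most.

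Among the cytosolic enzymes, Car2 lies on chromosome 3 at 14886273 to 14900770 (plus strand, GRCm38), beside Car13 (14641727 to 14663002) and Car3 (14863512 to 14872523), and Car1 lies between Car13 and Car3. None of the 10 genes is on chromosome 5, which holds Htt, or on chromosome 13, which holds Msh3.

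Car2 was slightly lower in each group with Q140. The lowest, median and highest mice had 94.2, 102.6 and 113.3 CPM in WT, and 88.8, 94.3 and 110.8 CPM in Q140. They had 97.6, 103.6 and 111.0 CPM in Msh3+/-, and 89.2, 93.2 and 100.9 CPM in Q140 x Msh3+/-. They had 94.7, 104.0 and 112.5 CPM in Msh3-/-, and 83.3, 94.8 and 103.5 CPM in Q140 x Msh3-/-. The ranges of each pair of groups overlapped, while the medians of the 3 Q140 groups all lay below those of the 3 groups without it. Of 24 carriers, 14 were below the lowest non-carrier and 22 were below the non-carriers' median of 103.1 CPM. Of 24 non-carriers, 3 were above the highest carrier, Q140 female 4.

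Over all carriers the mean was 94.8 ± 5.95 CPM (SD, n = 24), against 103.4 ± 5.93 in non-carriers (n = 24). The fitted log2 fold change was -0.13 ± 0.02 (SE), or 0.917 times the level of non-carriers, where the median of all genes tested was -0.000255. Within each Msh3 genotype it was -0.11 ± 0.04 in Q140 against WT, -0.14 ± 0.04 in Q140 x Msh3+/- against Msh3+/- and -0.13 ± 0.04 in Q140 x Msh3-/- against Msh3-/-. Carriers had the lower mean in 6 of 6 columns and 8 of 8 rows of the plate that the labels' well addresses give, and in 8 of 10 stems of the column names (the name without its last number, unexplained in the labels) that hold both. In males alone the value was -0.14 ± 0.03 and in females alone -0.10 ± 0.03. These splits re-use the values on which Car2 was selected, so they only describe the same difference.

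**Figure D2:**
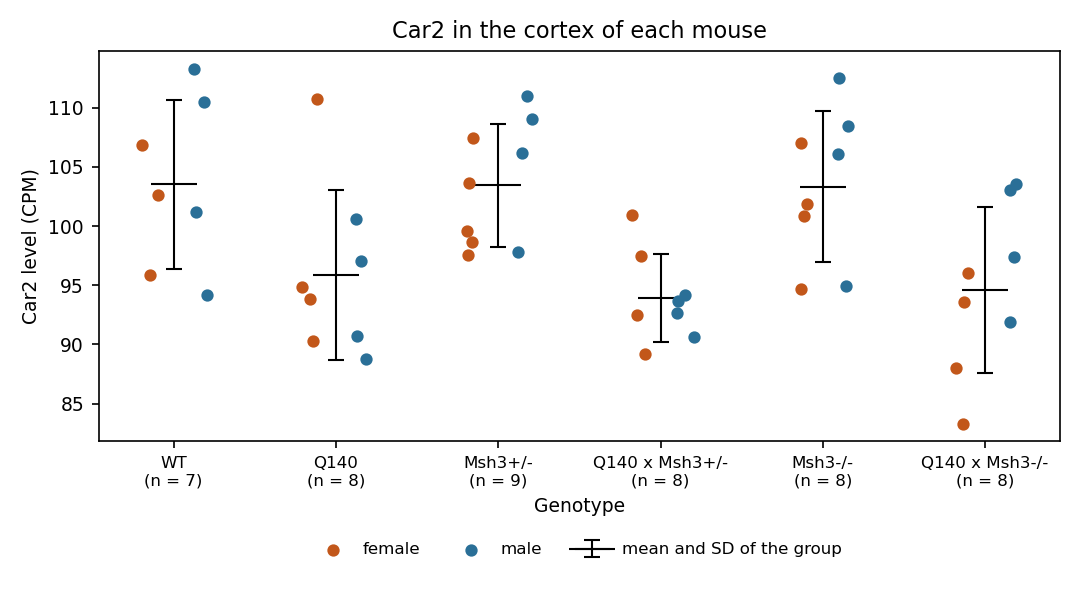
Car2 in CPM for each mouse by genotype, females and males in different colours, with the mean and SD of each group as bars (the axis does not start at 0). The group means lie between 93.9 and 95.9 CPM in the 3 groups with Q140 and between 103.3 and 103.5 CPM in the 3 without it, with overlapping points.

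Comparisons other than those of carriers with non-carriers were tested for Car2. Neither Msh3 genotype moved Car2 beyond the spread between mice: the log2 fold change was 0.00 ± 0.04 in Msh3+/- against WT (edgeR adjusted p = 0.989) and -0.00 ± 0.04 in Msh3-/- against WT (edgeR adjusted p = 1). Among Q140 carriers it was -0.03 ± 0.04 for Q140 x Msh3+/- against Q140 (edgeR adjusted p = 0.978) and -0.02 ± 0.04 for Q140 x Msh3-/- against Q140 (edgeR adjusted p = 0.926). Tests of whether the Q140 difference itself depended on Msh3 gave differences of -0.03 ± 0.06 for Msh3+/- (95% interval -0.16 to 0.09, edgeR adjusted p = 0.935) and -0.02 ± 0.06 for Msh3-/- (-0.15 to 0.11, edgeR adjusted p = 0.997). Both differences are built from the Q140 values described above, which the choice of Car2 used, so they may not be free of it. Car2 was 0.04 ± 0.02 in males against females on the log2 scale (edgeR adjusted p = 0.414).

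Car2 is a gene of oligodendrocytes, the myelin-forming cells, so markers of these and other cells were read beside it. Of 18 oligodendrocyte markers, 0 were called in carriers against non-carriers, 13 lay below 0 and 5 above, and the median log2 fold change was -0.03. Their summed level ran from 1551 to 2934 CPM in carriers and from 1647 to 2719 CPM in non-carriers. Its mean was 2086 ± 315 CPM in carriers (SD, n = 24) and 2193 ± 284 CPM in non-carriers (n = 24). Car2 per 1000 CPM of these markers was 46.2 ± 5.89 CPM in carriers and 47.8 ± 5.40 CPM in non-carriers (SD). Other lists also lay mostly below 0 with 0 called: 7 of 8 astrocyte markers (median -0.05), 5 of 7 oligodendrocyte precursor markers (median -0.05), 6 of 6 meningeal markers (median -0.07), 5 of 5 erythrocyte markers (median -0.29) and 9 of 9 choroid plexus markers (median -1.09). Choroid plexus markers had a median of -0.98 in Q140 against WT and -2.08 in Q140 x Msh3-/- against Msh3-/-. In Q140 x Msh3+/- against Msh3+/-, which holds no library high in Ttr, that median was -0.03, with 4 of 9 above 0. Erythrocyte markers had a median of -0.29 in Q140 against WT and -0.88 in Q140 x Msh3+/- against Msh3+/-. Their median was 0.26 in Q140 x Msh3-/- against Msh3-/-, with 5 of 5 above 0. Of 8 microglial markers 7 lay above 0 in carriers (median 0.02), and those of endothelium and neurons were mixed. Without the 3 libraries high in Ttr, the Car2 value was -0.13 ± 0.03. In bulk tissue, fewer cells of a type and less RNA per cell cannot be told apart, and the part of cell composition in the Car2 difference was not tested.

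Of the other cytosolic enzymes, Car3 is an isozyme of low activity known from muscle and fat. Its lowest, median and highest mice had 0.10, 0.44 and 0.89 CPM among carriers and 0.31, 0.58 and 1.12 CPM among non-carriers. Most of this range was shared, although 7 carriers were below the lowest non-carrier and 3 non-carriers were above the highest carrier. The log2 fold change was -0.43 ± 0.17 (edgeR adjusted p = 0.777), and it was -0.84 ± 0.25 in males alone and -0.10 ± 0.21 in females alone. Of 6 adipocyte markers 1 passed the filter and 1 was at 0 in every mouse, and of 6 skeletal muscle markers 4 passed, with 0 called in carriers against non-carriers.

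Car13, a cytosolic isozyme, varied strongly within every group, with medians from 0.80 CPM in Q140 to 1.66 CPM in Q140 x Msh3+/- and single mice from 0.50 to 2.45 CPM. Its log2 fold change in carriers was -0.19 ± 0.16 (edgeR adjusted p = 0.949). Car7, a cytosolic enzyme of neurons known for its part in bicarbonate-driven GABA responses, had group means from 24.2 to 24.9 CPM. Its value in carriers was 0.00 ± 0.03 on the log2 scale (95% interval -0.06 to 0.06, edgeR adjusted p = 0.999).

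The surface enzymes were Car4, held to the outer membrane by a lipid anchor, and Car12 and Car14, which cross the membrane once. Car4 had group means from 51.1 to 54.9 CPM, and its log2 fold change in carriers was 0.01 ± 0.04 (95% interval -0.06 to 0.09, edgeR adjusted p = 0.986).

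Car12 lies on chromosome 9 at 66713686 to 66766845 (plus strand) and Car14 on chromosome 3 at 95897768 to 95904691 (minus strand). Promoter sequences were at hand for 6 of the 10 genes, without Car2, Car3, Car8 and Car13. Those of Car12 and Car14 are shown because both genes were highest in the mouse with the most Ttr. Each is the 250 bases before the RefSeq transcript start on GRCm38.p6, read 5′ to 3′ on the gene's strand, with capitals marking motif matches on either strand (Car12 at chr9:66713436-66713685, plus strand, and Car14 at chr3:95904686-95904935, minus strand):
Car12: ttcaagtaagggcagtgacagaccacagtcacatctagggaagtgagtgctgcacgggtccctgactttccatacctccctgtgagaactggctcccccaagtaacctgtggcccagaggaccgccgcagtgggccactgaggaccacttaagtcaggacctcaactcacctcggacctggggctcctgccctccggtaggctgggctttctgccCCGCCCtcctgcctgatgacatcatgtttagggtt
Car14: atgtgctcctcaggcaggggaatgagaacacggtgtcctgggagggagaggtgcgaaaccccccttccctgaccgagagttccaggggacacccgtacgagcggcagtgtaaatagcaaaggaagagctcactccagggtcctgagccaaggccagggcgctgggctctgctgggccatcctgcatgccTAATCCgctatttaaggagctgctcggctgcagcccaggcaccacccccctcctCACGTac
The motifs searched on both strands were the TATA box TATAAA, the CCAAT box CCAAT, the GC box GGGCGG, the hypoxia response cores ACGTG and GCGTG, the Otx homeodomain motif TAATCC and the cAMP response element TGACGTCA. The Car12 window held a GC box on the minus strand, 30 to 35 bases before the start. The Car14 window held TAATCC on the plus strand, 56 to 61 bases before the start, and ACGTG on the minus strand, 3 to 7 bases before it. By the gene position given above, Car14 starts at 95904691, inside this window. The ACGTG match therefore overlaps the gene as placed there. Among 32851 promoter windows of the same length, GGGCGG was found in 32.7%, ACGTG in 16.6% and TAATCC in 6.25%. These matches are descriptions of letters. The Car14 window was 62.0% G and C and the Car12 window 59.2%, where the median window had 52.4%.

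The Car12 mean was lower in carriers, at 3.89 ± 0.88 CPM (SD, n = 24) against 5.67 ± 3.39 (n = 24), and this did not pass the test. Its lowest, median and highest mice had 2.53, 3.61 and 5.62 CPM among carriers and 3.33, 4.53 and 19.6 CPM among non-carriers. Of 24 non-carriers, 7 were above the highest carrier, and 19 of 24 carriers were below the non-carriers' median. The log2 fold change was -0.53 ± 0.14 (95% interval -0.81 to -0.24, edgeR adjusted p = 0.345), and the largest difference within an Msh3 genotype was -0.73 ± 0.24 in Q140 x Msh3-/- against Msh3-/- (edgeR adjusted p = 0.671). Carriers had the lower mean in 6 of 6 plate columns, 6 of 8 plate rows and 7 of 10 stems.

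The size of the Car12 difference changed with 3 libraries. Msh3-/- female 4 had 19.6 CPM of Car12 and 8.89 CPM of Car14, the highest of all 48 mice for both, and 1093 CPM of Ttr. WT male 3 had 7.10 CPM of Car12 and 6.72 of Car14 with 352.6 CPM of Ttr, and Msh3-/- female 3 had 4.75 and 5.90 CPM with 106.1 CPM of Ttr. No other library exceeded 9.17 CPM of Ttr, and these 3 mice are all non-carriers. Without them the Car12 difference was -0.36 ± 0.11 (edgeR adjusted p = 0.512), and without Msh3-/- female 4 alone it was -0.39 ± 0.11 (edgeR adjusted p = 0.447). In Msh3-/- the Car12 mean was 7.06 ± 5.34 CPM with all libraries (SD, n = 8) and 5.35 ± 1.94 CPM without those high in Ttr (n = 6). The Q140 x Msh3-/- mean was 4.24 ± 0.90 CPM (n = 8). High Car12 was also seen where Ttr was low, at 9.46 CPM in Msh3+/- male 2 (Ttr 2.24 CPM, one of the libraries apart on the second component), 7.99 in Msh3-/- female 2 (Ttr 2.47) and 7.53 in Msh3-/- female 1 (Ttr 5.43). Without the 3 libraries apart on the second component the difference was -0.48 ± 0.14 (edgeR adjusted p = 0.5).

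Of 12 choroid plexus markers, 9 passed the filter and 0 were called in carriers against non-carriers, all 9 lay below 0, and the median log2 fold change was -1.09. Their summed level ran from 204.2 to 252.9 CPM in carriers and up to 2031 CPM in non-carriers. In Q140 x Msh3+/- against Msh3+/-, holding none of the 3 libraries high in Ttr, 4 of 9 lay above 0 (median -0.03). The part of these libraries in the Car12 value beyond the values without them was not tested. Car14 had group means from 5.65 to 5.88 CPM, and its log2 fold change in carriers was -0.00 ± 0.06 (edgeR adjusted p = 0.999) with all libraries and 0.06 ± 0.05 (edgeR adjusted p = 0.938) without the 3.

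**Figure D3:**
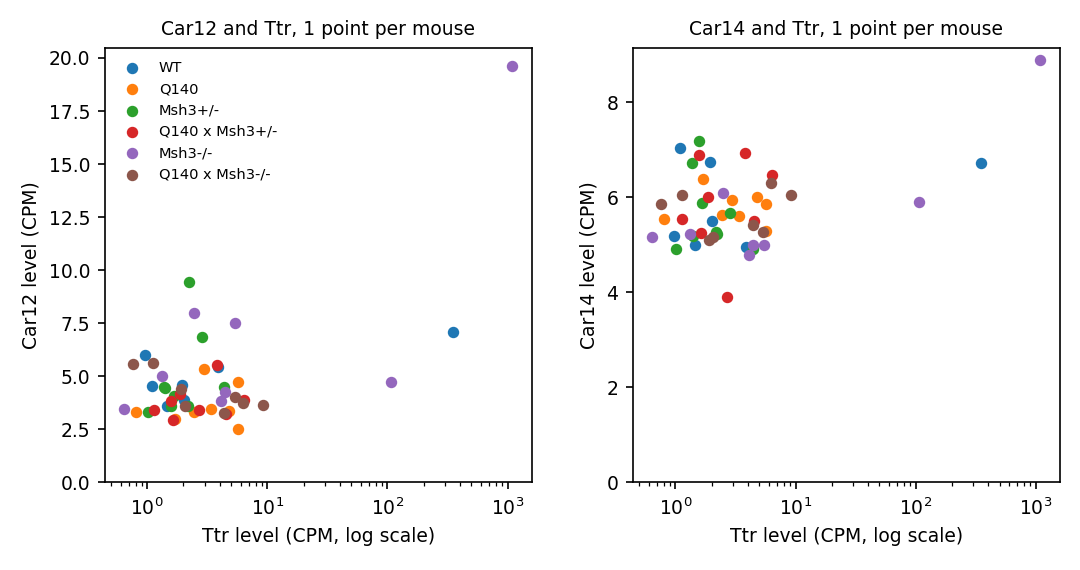
Car12 (left) and Car14 (right) in CPM against Ttr in CPM on a log scale, 1 point per mouse, coloured by genotype. The 3 mice with high Ttr stand to the right at 106.1, 352.6 and 1093 CPM of Ttr, while 4 mice with Ttr between 2.24 and 5.43 CPM have Car12 between 6.88 and 9.46 CPM.

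The related proteins without catalytic activity were Car8, Car10 and Car11. Car8 binds the inositol trisphosphate receptor Itpr1 and is best known from Purkinje cells. Car10 had group means from 207.9 to 217.9 CPM and a log2 fold change in carriers of -0.01 ± 0.02 (edgeR adjusted p = 0.978). Car11 had group means from 141.3 to 148.4 CPM and a log2 fold change of -0.01 ± 0.02 (edgeR adjusted p = 0.983). The 95% intervals were -0.06 to 0.03 for Car10 and -0.05 to 0.03 for Car11. Car8 was 15.2 ± 1.36 CPM in carriers (SD, n = 24) and 14.6 ± 1.21 in non-carriers (n = 24), with a log2 fold change of 0.06 ± 0.03 (edgeR adjusted p = 0.835).

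Counted over the members, Q140 carriers against non-carriers gave 0 of 9 called besides Car2, where 7 of 20010 genes were called (0.035% of genes tested). At an unadjusted p under 0.05 there were 3 of 9 (Car3, Car8 and Car12), beside 5.63% of all genes. DESeq2 and limma voom also called 0 of the 9. Their median log2 fold change was -0.01, and 6 lay below 0 and 3 above.

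Within Msh3 genotypes, 0 of 9 were called by edgeR in Q140 against WT (0.01% of all genes called), in Q140 x Msh3+/- against Msh3+/- (0.015%) and in Q140 x Msh3-/- against Msh3-/- (0%). At an unadjusted p under 0.05 each of these held 1 member, Car13 at -0.58 ± 0.28, Car3 at -0.61 ± 0.30 and Car12 at -0.73 ± 0.24 in turn. Of all genes, 5.48%, 6.20% and 6.80% were under that p in the same comparisons, so 1 of 9 is near the background.

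No member was called between Msh3 genotypes. By edgeR, 0 of 10 were called in Msh3+/- against WT (0.025% of genes called), with 2 at an unadjusted p under 0.05, Car8 at 0.12 ± 0.05 and Car11 at -0.07 ± 0.04, beside 9.50% of all genes. In Msh3-/- against WT 0 of 10 were called (0.035%), with 0 at an unadjusted p under 0.05. In Q140 x Msh3+/- against Q140 0 of 10 were called (0.02%), with Car13 at 0.67 ± 0.28 under an unadjusted p of 0.05, beside 5.14% of all genes. In Q140 x Msh3-/- against Q140 0 of 10 were called (0.045%), with 0 under an unadjusted p of 0.05. For the Q140 effect in Msh3+/- or in Msh3-/- minus that in unaltered Msh3, 0 of 10 were called, with 0 under an unadjusted p of 0.05, and 0% of all genes were called in both. DESeq2 and limma voom called 0 members in each of these 6 comparisons.

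Car8 was called lower in males in the main fit, but was not called with plate row in the fit. In males against females 1 of 10 was called, Car8, beside 1112 of 20010 genes (5.56% of genes tested, being 2.83% lower and 2.73% higher in males). A count of 1 of 10 is near that background. The lowest, median and highest mice had 12.6, 13.9 and 16.8 CPM of Car8 among males and 13.6, 15.4 and 18.4 CPM among females. The ranges overlapped over most of their length, with 7 of 24 males below the lowest female and 20 of 24 below the females' median. The mean was 14.3 ± 1.12 CPM in males (SD, n = 24) and 15.6 ± 1.18 in females (n = 24), a log2 fold change of -0.12 ± 0.03 (edgeR adjusted p = 0.00961).

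Males had the lower Car8 mean in 6 of 6 genotypes. The size varied from 14.0 against 16.4 CPM in Q140 x Msh3-/- to 15.5 against 15.9 CPM in Q140 x Msh3+/-, each with 4 males and 4 females. The same direction held in 6 of 6 plate columns and in the 7 plate rows that hold both sexes. Row C held 6 males and 0 females, and rows B, D and G each held 5 mice of one sex and 1 of the other, so row and sex partly coincide. With plate row in the fit the value was -0.10 ± 0.04 (edgeR adjusted p = 0.135), and Car8 was no longer called.

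Markers of other cell types were read beside the Car8 value in males against females. Of 8 astrocyte markers, Aldh1l1 and S100b were called lower and Gja1 higher, with 3 above 0 and 5 below. All 7 oligodendrocyte precursor markers lay below 0 with Olig2 called, and 16 of 18 oligodendrocyte, 9 of 9 choroid plexus and 6 of 6 meningeal markers lay below 0 with 0 called. All 5 erythrocyte markers lay above 0 with 0 called, and Slc17a7 was called higher among 8 excitatory neuron markers, of which 3 lay above 0. Microglia (4 of 8 above 0), inhibitory neuron (4 of 6), endothelium (3 of 8), and cerebellar Purkinje and granule cell markers (2 of 3) were mixed, with 0 called. Of all genes, 5.56% were called in the same comparison, and whether these marker calls hold with plate row in the fit was not tested. The part of any of these cell types in the Car8 value was not tested.

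**Figure D4:**
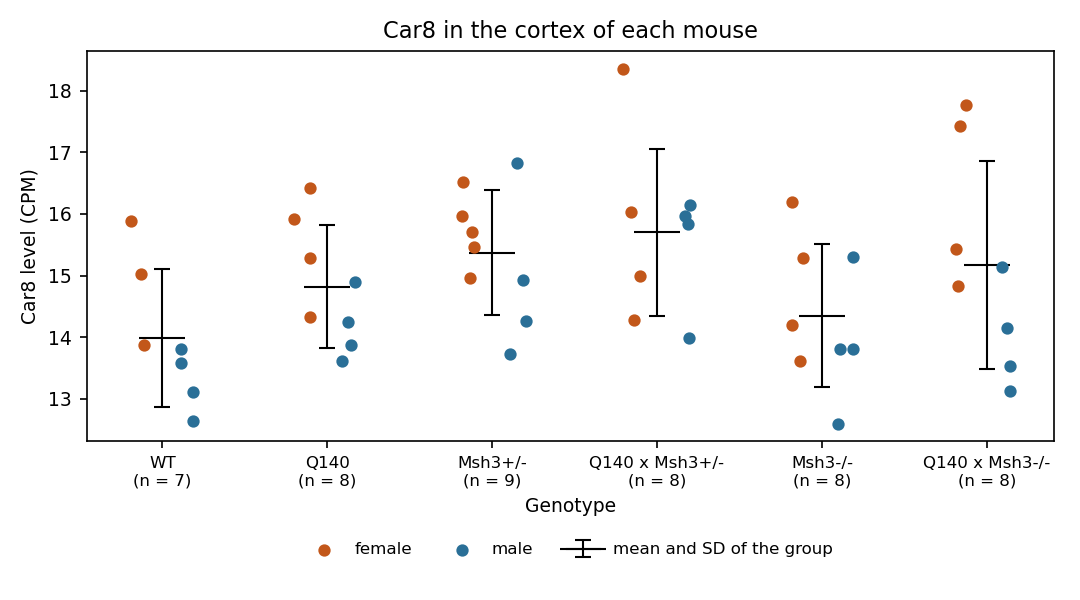
Car8 in CPM for each mouse by genotype, females and males in different colours, with the mean and SD of each group as bars (the axis does not start at 0). Males lie lower on average in all 6 genotypes, with group means of 14.0 to 15.7 CPM over both sexes.

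**Figure D5:**
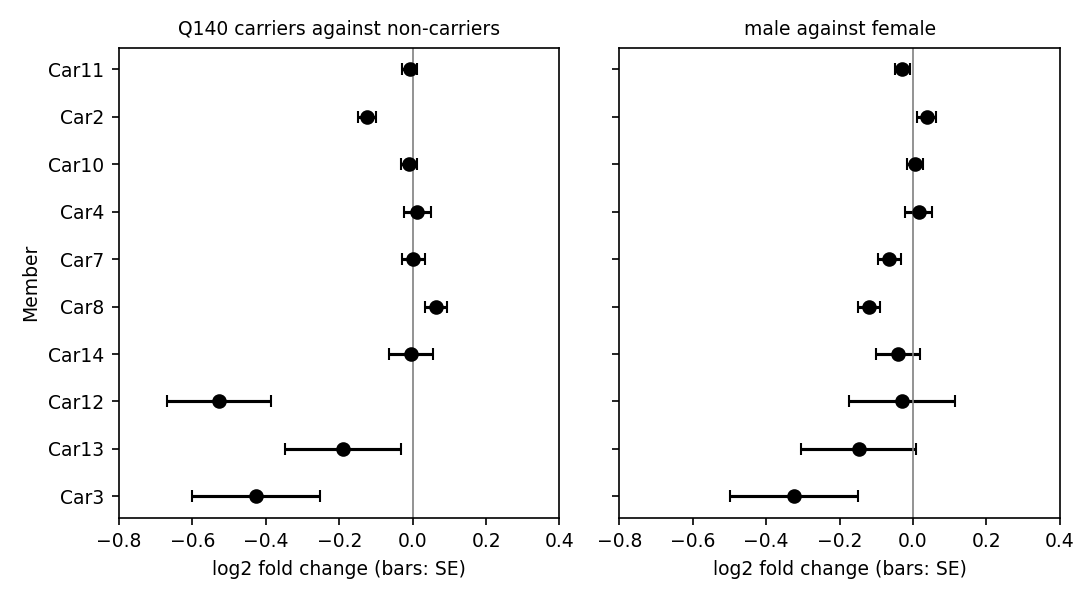
Log2 fold change of each member with its SE as bars, in Q140 carriers against non-carriers (left) and in males against females (right), with members in order of falling FPKM. On the left the abundant members other than Car2 lie near 0, and Car12 at -0.53 and Car3 at -0.43 have wide bars, while on the right Car8 lies at -0.12.

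The wider machinery of bicarbonate, protons and lactate was given by a list of 44 transporters, channels and binding partners, of which 39 passed the filter. In carriers against non-carriers 0 of 39 were called by edgeR, 16 lay above 0 and 23 below, and the median log2 fold change was -0.01. The 2 with the smallest p were Aqp1, a water channel of the choroid plexus, at -1.09 ± 0.34 (edgeR adjusted p = 0.547), and the sodium-proton exchanger regulator Slc9a3r1 at -0.10 ± 0.03 (edgeR adjusted p = 0.58). Aqp1 was low, at a mean of 0.53 CPM. It had 7.19, 2.24 and 1.28 CPM in the 3 libraries high in Ttr, all non-carriers, and at most 0.66 CPM in any other mouse. In males against females 4 of 39 were called, all lower in males, where 5.56% of all genes were called and 2.83% were called lower. They were Emb, a partner of monocarboxylate transporters, at -0.14 ± 0.03 (edgeR adjusted p = 0.00367), and the sodium-proton exchanger Slc9a5 at -0.20 ± 0.06 (edgeR adjusted p = 0.0323). The others were Bsg, the basigin partner of lactate transporters, at -0.08 ± 0.02 (edgeR adjusted p = 0.0384), and the sodium bicarbonate cotransporter Slc4a4 at -0.07 ± 0.02 (edgeR adjusted p = 0.0403). Whether these 4 calls hold with plate row in the fit, which partly coincides with sex, was not tested. Itpr1, the binding partner of Car8, was not called in either comparison, with a log2 fold change of -0.01 ± 0.02 in carriers.

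Likeness was then described by Pearson's r of log2 CPM over the 48 mice after genotype and sex means were taken out, among genes with a mean of at least 1 CPM. These r are descriptions, and the values of both genes in a mouse come from 1 library. Nearest to Car2 were Unc5b (r = 0.71), Evi2a (0.68), Gpr37 (0.68), Litaf (0.66) and Bcas1 (0.66). None of these 5 was called in carriers against non-carriers, with log2 fold changes from -0.08 to 0.03. Nearest to Car13 were Slc26a7 (0.87), Adamtsl3 (0.86), Slc47a1 (0.84), Bche (0.82) and Cdh1 (0.81). Nearest to Car3 were B3gat2 (0.78), Oprk1 (0.76), Rxfp1 (0.74), Col24a1 (0.74) and Synpr (0.74).

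For the surface enzymes, Car4 was nearest to Tle1 (0.74) and Camk2n2 (0.73). Car12 was nearest to Cab39l (0.63), Sulf1 (0.63) and Kl (0.63), and Car14 to Sulf1 (0.63), Enpp2 (0.58) and Slc12a2 (0.56). Without the 3 libraries high in Ttr, 0 of the 5 nearest genes were shared for Car12 and 0 of 5 for Car14, while the other 8 members shared 2 to 5. Car7 was nearest to Inpp5b (0.69), Car8 to Pou3f2 (0.58), Car10 to Ppp3ca (0.79) and Car11 to Abhd8 (0.78).

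Among the members themselves, 45 pairs were compared in the same way, with permutation tests of 100000 draws, 2-sided. Car2 and Car4 deviated in opposite directions (r = -0.55, permutation p = 8e-05, adjusted over the 45 pairs p = 0.0036, and Spearman's rho = -0.55, permutation p = 6e-05, adjusted p = 0.0027). Without the 2 mice farthest from the median of Car2, r was -0.57. It was -0.73 in 24 males and -0.32 in 24 females, -0.58 with plate column means taken out -0.60 without the 3 libraries high in Ttr, and -0.43 where genotype and sex means were left in. Car3 and Car8 also deviated oppositely (r = -0.45, permutation p = 0.00145, adjusted p = 0.0217, and rho = -0.46, permutation p = 0.00134, adjusted p = 0.0301), with r = -0.47 without the 2 mice farthest in Car3, -0.37 in males and -0.54 in females, but -0.24 where genotype and sex means were left in. Car2 and Car7 gave r = -0.41 (permutation p = 0.00399, adjusted p = 0.0449) and rho = -0.41 (permutation p = 0.00401, adjusted p = 0.0601), so that only r passed after adjustment. Car12 and Car14 deviated in the same direction over the 48 mice (r = 0.46, permutation p = 0.00144, adjusted p = 0.0217). Their rho was 0.36 (permutation p = 0.0119, adjusted p = 0.107), so here too only r passed after adjustment. Without the 2 mice farthest in Car12, r was 0.32, and in the 45 mice without the 3 libraries high in Ttr it was 0.19.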

How the data were processed

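Cortical RNA of 48 mice was prepared with Qiagen RNeasy columns and Illumina TruSeq stranded libraries, per the labels. HTSeq 0.12.3, STAR 2.7.5c and SAMtools 1.10 are listed in the submitters' processing notes, with the genome GRCm38 (mm10). The annotation, the strand setting and the filters are not given in the sources used here, so reads shared with overlapping or antisense genes cannot be told apart. The authors deposited whole-number read counts per gene, and per the file headers an FPKM table of the same 48795 genes.

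Differences were tested on the counts with edgeR 4.0.16 (R 4.3.3). The low-count filter was filterByExpr by genotype (20010 genes, 99.96% of counts). All mice entered 1 model with TMM factors, 6 genotypes and sex, comparisons were tested with the quasi-likelihood F-test, and p-values were Benjamini-Hochberg adjusted over all genes tested. A gene is called at an adjusted p under 0.05. SE is the fold change's size divided by the square root of F. The script was tested on simulated data. Alternatives used DESeq2 1.42.0 and limma 3.58.1, other filters, scalings, plate terms, and left-out libraries. The 10 members and all gene lists were chosen with earlier results of these data known. All members are named, and from the pH and bicarbonate list the called genes and the 2 with the smallest p. The 5 genes nearest to each member were taken by r, and the report names the first 1 to 5 of them. Replicate numbers were not found to pair the mice. Positions are from GENCODE M21 on GRCm38 and promoters from RefSeq on GRCm38.p6.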

Additional observations from a re-analysis of the deposited data

Results flagged for a closer look

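Within the 6 genotypes, the highest or lowest mouse of 3 pairs of gene and group, of 60 examined, stood apart from the rest of its group by Dixon's 95% criterion, a gap that chance gives in about 1 in 20 groups. Car12 was 5.55 CPM in Q140 x Msh3+/- male 4, where the nearest mouse had 4.16 and the group's median was 3.63 CPM (n = 8). Car12 was 19.6 CPM in Msh3-/- female 4, where the nearest mouse had 7.99 and the median was 4.88 CPM (n = 8). Car14 was 8.89 CPM in the same mouse, Msh3-/- female 4, where the nearest had 6.08 and the median was 5.19 CPM (n = 8). That library also held the highest Ttr, at 1093 CPM. Car2, Car3, Car4, Car7, Car8, Car10, Car11 and Car13 had no mouse that stood apart in this way in any group.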

How the results depend on the processing

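Counts of called members held under all alternatives run, except that 0 members were called in males against females with plate row as a factor (main 1), where 265 genes in all were called (main 1112). Over the alternatives other than single left-out mice, the number of all genes called ran from 2 to 13 in carriers against non-carriers (main 7), from 0 to 14 in the 7 comparisons between pairs of genotypes (main 0 to 9) and was 0 for both differences between Q140 effects. The strict filter removed Car3, which has no value there, and sex could not be tested with the replicate block or in one sex. Of single-gene values, 475 were classed as unchanged, 1 lost its call (Car8 in males against females, -0.10, edgeR adjusted p = 0.135) and 4 reversed, all uncalled. Unchanged meant the same side of the threshold and the same direction, or a change of sign with both values within their SE of 0. For Car2 in carriers against non-carriers, which was not tested, it meant the same direction and a shift under the SD between mice. In Q140 carriers against non-carriers, Car7 was -0.060 in females only, Car13 was 0.12 in males only and Car14 was 0.056 without the 3 libraries high in Ttr. Car2 in Q140 x Msh3-/- against Q140 was 0.074 in males only. The cause was not tested. Car2 in carriers ranged from -0.14 to -0.12 over single left-out mice. Car12 in carriers ranged from -0.56 to -0.39 over single left-out mice, and was -0.23 on log2(FPKM + 1), which understates changes of low genes. With a replicate block of sex and number, Car2 in carriers was -0.13 ± 0.03 and 0 of the other 9 members were called. Same-numbered mice of one sex did not deviate together (mean r = -0.03 over 115 pairs), and 10 of 48 mice correlated best with their own number.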

Other observations

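The tables hold 6 further carbonic anhydrase genes, of which 3 passed the filter on low counts. Car5b, a mitochondrial isozyme gene on chromosome X, was 3.81 ± 0.36 CPM (SD, n = 48), with 120 to 247 counts per library. Car15, a surface isozyme, was 1.63 ± 0.24 CPM, and Car5a, the other mitochondrial isozyme, was 0.21 ± 0.08 CPM with 4 to 20 counts per library. Car9, a surface enzyme known for its induction by low oxygen, was 0.11 ± 0.06 CPM and had 0 counts in 2 of 48 mice. Car1, a cytosolic enzyme known from red blood cells, had 0 counts in 21 of 48 mice and at most 6 in any. Car6, the secreted enzyme of saliva, had 0 counts in 29 of 48 mice and at most 4 in any.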
